A study of Mus musculus with 656 samples.

Results

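Nos2, Acod1, Sod2, Lcn2, Saa3, C3, Slc7a2 and Gch1 are 8 of the 22070 genes counted in mouse 3T3 cells, an embryonic fibroblast line. They were chosen by name, as genes whose products act against microbes or change metabolism late in an inflammatory response, and all 8 passed the filter on low counts that 10766 genes passed. Polyadenylated RNA was measured by TagSeq, which reads the 3' ends of transcripts, in 41 groups of 4 libraries. One group had neither stimulus nor inhibitor and is called unstimulated here. In the other groups SC-514, which inhibits IKKβ, was present from 1 hour before the stimulus, at 0, 25, 50 or 100 µM. The stimulus was IL-1β (1 ng/ml) in 20 groups and TNF-α (10 ng/ml) in 20, and lasted 15, 30, 60, 120 or 360 min. All groups came from the same unmodified line. No group received SC-514 alone, and the labels do not say which vehicle the 0 µM groups had or whether the 4 libraries of a group were separate cultures. The p-values below therefore measure only the spread between these libraries.

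IL-1β and TNF-α bind different receptors whose signals meet at the IKK complex. IKKβ marks the inhibitor IκB for degradation, and NF-κB then enters the nucleus and starts transcription, first of feedback and chemokine genes and later of effector genes. Nos2 encodes the inducible nitric oxide synthase, Slc7a2 the transporter that imports its substrate arginine, and Gch1 the first enzyme of tetrahydrobiopterin synthesis, the cofactor of that synthase. Acod1 encodes the mitochondrial enzyme that makes itaconate from the citrate cycle intermediate aconitate. Sod2 encodes the mitochondrial manganese superoxide dismutase. Lcn2 encodes lipocalin 2, which holds iron-loaded bacterial siderophores, Saa3 an acute phase serum amyloid A protein, and C3 the central component of complement. In fibroblasts these genes are known as part of the response of connective tissue to inflammatory cytokines.

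On the GRCm38 build the GENCODE annotation places all 8 as protein-coding genes. Nos2 lies at chr11:78920787-78960254 on the plus strand, Acod1 at chr14:103046977-103056573 plus, Sod2 at chr17:13006846-13040063 plus and Slc7a2 at chr8:40862396-40922308 plus. Lcn2 lies at chr2:32384633-32388252 on the minus strand, Saa3 at chr7:46711998-46715700 minus, C3 at chr17:57203970-57228136 minus and Gch1 at chr14:47153895-47189413 minus. Slc7a2 overlaps the annotated Gm26584 on the other strand, Gch1 overlaps Gm49134 on the other strand and Gm18811 on its own, and C3 holds Mir6978. Whether strand was used in counting is not given in the sources used here, so reads of these overlaps cannot be told apart, and serum amyloid A genes resemble each other in sequence, so the Saa3 count is uncertain to that extent.

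RefSeq promoter windows on GRCm38.p6 matched 6 of the 8 genes, all but Nos2 and Slc7a2. The stretches before the gene start are printed for 3 genes that rose under both labels and for C3, which did not, so that they can be compared. They lie at chr14:103046762-103046976 plus (Acod1, 215 bases), chr7:46715701-46715926 minus (Saa3, 226), chr17:57228137-57228386 minus (C3, 250) and chr14:47189414-47189663 minus (Gch1, 250), each read 5′ to 3′ on the strand of the gene. Capitals mark a match to the degenerate κB consensus, the sequence class NF-κB binds.
Acod1: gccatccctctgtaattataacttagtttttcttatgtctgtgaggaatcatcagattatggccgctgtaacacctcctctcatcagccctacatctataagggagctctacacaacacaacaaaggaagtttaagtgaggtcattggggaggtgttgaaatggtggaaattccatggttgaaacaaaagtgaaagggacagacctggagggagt
Saa3: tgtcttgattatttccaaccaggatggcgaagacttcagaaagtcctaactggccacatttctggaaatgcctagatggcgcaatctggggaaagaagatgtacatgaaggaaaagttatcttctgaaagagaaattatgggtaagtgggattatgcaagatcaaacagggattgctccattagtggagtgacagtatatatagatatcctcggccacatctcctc
C3: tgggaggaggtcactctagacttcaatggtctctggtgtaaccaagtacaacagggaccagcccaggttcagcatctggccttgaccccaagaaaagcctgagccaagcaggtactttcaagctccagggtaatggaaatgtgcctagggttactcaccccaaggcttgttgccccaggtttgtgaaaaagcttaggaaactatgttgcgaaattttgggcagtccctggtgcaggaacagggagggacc
Gch1: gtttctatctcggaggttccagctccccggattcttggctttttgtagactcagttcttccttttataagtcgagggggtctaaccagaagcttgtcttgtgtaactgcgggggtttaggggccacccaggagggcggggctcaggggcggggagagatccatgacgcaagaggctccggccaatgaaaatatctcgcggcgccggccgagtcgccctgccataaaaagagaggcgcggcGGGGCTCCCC
The positions below count back from the RefSeq transcript start at the end of each window. For Acod1, Sod2, Lcn2 and Saa3 that start lies inside the GENCODE gene given above, so that the windows of Sod2 and Lcn2 lie wholly within the gene and those of Acod1 and Saa3 run past the printed stretch into it. Searched on both strands, the degenerate κB consensus was found in the windows of Gch1, 10 bases before the transcript start, and Sod2, 83 bases before its transcript start and within the GENCODE gene, and in 7.25% of all 32851 windows. The narrower κB form GGGANTTTC is in 0.941% of all windows and the C/EBP form TTGCNNCAA in 1.74%, and none of the 6 windows holds either. The interferon-response pair GAAANNGAA was found in Saa3, 125 bases before the start, and in 7.13% of windows. The STAT form TTCNNNGAA was found in Sod2, 185 bases before the transcript start, and in 7.02% of windows. TATAAA was found in Acod1, 28 bases before the transcript start and beyond the printed stretch, in Gch1 on the other strand, and in 12.4% of windows. The matches are descriptions of these letters only.

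Library totals were 928906 to 2469454 counts except for 12191 in the 1st library of the group labelled IL-1β at 50 µM and 30 min and 3839 in the 1st of the group labelled TNF-α at 50 µM and 120 min. No call on the 8 genes given below was lost without these 2 libraries. Labelled IL-1β at 100 µM and 360 min, the 1st library had counts for 15303 genes, beside 13321, 13529 and 13170 in its group. At 120 min the 1st library had 14634, beside 13332, 13350 and 13198. The cause was not tested. The fibroblast markers were present, with 9 of 10 tested and a summed level of 7651 to 7834 CPM, counts scaled to a common library size, in the unstimulated libraries. That sum was lower, without overlap, in each of the late groups, at 6301 to 6653 CPM at 360 min labelled IL-1β and 6990 to 7224 labelled TNF-α, and 5757 to 6680 and 5136 to 5652 at 100 µM. Of 9 macrophage markers 3 passed the filter, Cd68, Lyz2 and Cd14, with 938, 1366 and 2801 counts in all 164 libraries together. Csf1r had 641 counts, Itgam 153, Ptprc 133, Fcgr1 15, Adgre1 3 and Tyrobp 2. The 9 markers summed to 32.0 to 39.0 CPM unstimulated. At 360 min the sum was 40.2 to 56.1 CPM labelled IL-1β and 42.0 to 49.5 labelled TNF-α, and 11.35 to 40.0 and 18.8 to 21.9 at 100 µM. Of the neutrophil markers 4 were counted, and S100a8 alone passed the filter. Their sum was 4.21 to 7.26 CPM unstimulated, 32.6 to 47.8 at 360 min labelled IL-1β and 22.9 to 32.1 labelled TNF-α. At 100 µM that sum was 4.35 to 8.52 and 2.55 to 7.10 CPM. S100a8 itself had a mean of 4.675 CPM unstimulated, 39.7 and 27.1 at 360 min, and 6.01 and 4.18 at 100 µM. Hepatocyte, epithelial and lymphocyte markers summed to at most 5.22 CPM in those groups. Endothelial markers summed to 8.42 to 25.9 CPM unstimulated and to at most 12.4 in the late groups, except for 27.8 in 1 library labelled IL-1β at 100 µM. Pecam1 among them was 10.6 CPM unstimulated, 4.57 and 5.94 at 360 min and 6.94 and 2.92 at 100 µM. The macrophage marker Cd14 was 18.8, 30.5 and 29.5 CPM unstimulated and at 360 min under each label, and 5.89 and 8.36 at 100 µM. The other tested macrophage markers, Cd68 and Lyz2, did not follow Cd14 under both labels. Cd68 was 6.49 CPM unstimulated, 4.567 and 5.122 at 360 min labelled IL-1β and TNF-α, and 5.458 and 4.786 at 100 µM. Lyz2 was 5.132 CPM unstimulated, 5.811 and 5.863 at 360 min, and 6.997 and 4.818 at 100 µM. S100a8 and Cd14 were thus higher at 360 min and lower with SC-514, as were most of the genes below. The fibroblast sum and Pecam1 were lower at 360 min than unstimulated, where most of those genes were higher. The part of these markers in the results was not tested. The labels of the stimulus conflict: the column prefix given in the descriptions of one stimulus is the title prefix of the other. The descriptions decided the groups, which is why a stimulus is named below as a label. Nfkbiz, which encodes IκBζ and is known to respond strongly to IL-1β and little to TNF-α in fibroblasts, was 32.2 ± 7.55 CPM (SD, n = 4) unstimulated, 53.0 ± 6.95 in the 60 min group labelled IL-1β and 484 ± 20.4 in that labelled TNF-α. If the titles were followed instead, every stimulus name below would be exchanged for the other.

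Levels are CPM on TMM-scaled totals, as mean ± SD over 4 libraries, and 3 counts equalled 1.21 to 3.23 CPM. Differences are log2 values with standard errors from edgeR's quasi-likelihood test over all groups, and "called" means an adjusted p (Benjamini-Hochberg over the 10766 genes) under 0.05. With DESeq2's size factors (RLE) the median over all genes shifted by at most 0.125 log2, and they raised the share of called genes that were higher at 100 against 0 µM and 360 min from 47.0% to 63.6% (labelled IL-1β) and from 42.4% to 68.7% (labelled TNF-α). With RLE factors but without the 2 shallow libraries the median shifted by at most 0.0187 log2. In bulk RNA, fewer cells that express a gene and less RNA per cell cannot be told apart.

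Of the 8 genes 7 rose, with most calls from 60 or 120 min on. At 15 and 30 min after the stimulus 0 of 8 were called higher than unstimulated with edgeR under either label, where 0.121% and 0.725% of all genes were called higher under IL-1β and 0.0836% and 0.557% under TNF-α. DESeq2 also called 0. In either direction, higher or lower, unadjusted p fell under 0.05 for 1 and 2 genes labelled IL-1β and for 1 and 1 labelled TNF-α. Sod2 labelled IL-1β at 30 min stood nearest to a call, with 204, 217, 209.8 and 214 CPM above every unstimulated library (0.26 ± 0.07 log2, adjusted p 0.0508 with edgeR), and it was called with the replicate block and without the 2 shallow libraries. At 60 min Sod2, Saa3 and Slc7a2 were higher in libraries labelled IL-1β (3 of 8, against 2.74% of all genes), and the Slc7a2 call was lost with only the groups compared in the fit. Those 3 with Acod1 and Lcn2 were higher in libraries labelled TNF-α (5 of 8, against 4.15%). By 120 min 7 of 8 genes were higher under each label, all but C3, against 8.17% and 9.14% of all genes. At 360 min the same 7 were higher under IL-1β, against 12.3% of all genes, and 6 under TNF-α, without Acod1, against 3.62%. The median difference of the 8 genes at 360 min was 3.25 and 2.40, where that of all genes was -0.01 and 0.00.

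**Figure D1:**
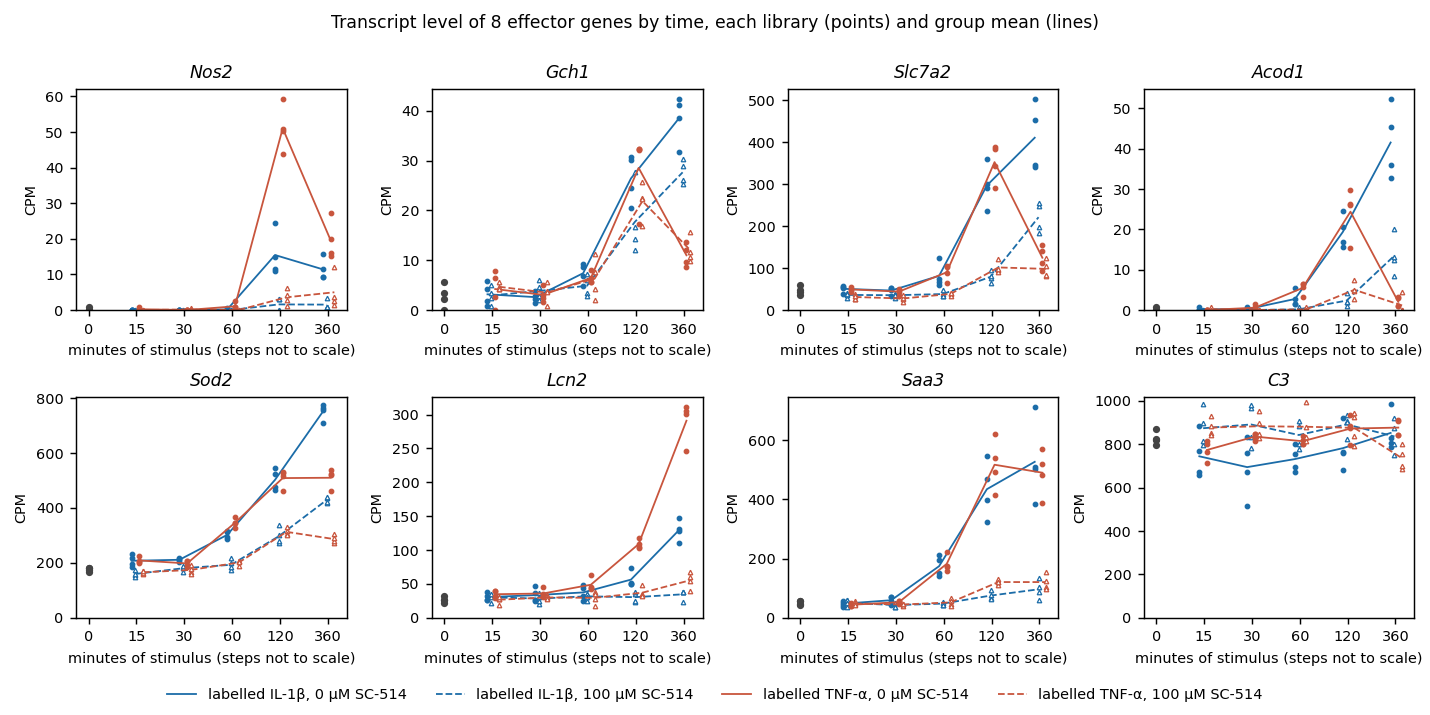
Levels of the 8 genes (CPM, y axes from 0, 1 scale per gene) against time after the stimulus (min, steps not to scale), by stimulus label, at 0 µM (solid) and 100 µM SC-514 (dashed). Points are libraries and lines join group means. At 120 min the libraries at 0 µM lie above the unstimulated ones for each gene but C3, and Acod1, Slc7a2 and Gch1 labelled TNF-α come down again at 360 min.

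The 3 genes around nitric oxide synthesis were all higher by 120 min under both labels. Nos2 was nearly silent without stimulus, with 1 count in 4 libraries (0, 0.864, 0 and 0 CPM). At 120 min the libraries labelled IL-1β held 24.4, 11.6, 14.8 and 10.9 CPM of it, and those labelled TNF-α 51.0, 59.2, 50.3 and 43.7. No stimulated library overlapped an unstimulated one, and the groups with the different labels did not overlap either. The ratio of counts to the unstimulated group was 76.6 (95% counting interval 13.4 to 3058) labelled IL-1β, a wide interval because 1 count stands below it. At 360 min Nos2 was 15.8, 11.5, 9.20 and 9.19 CPM labelled IL-1β, a count ratio of 56.8 (9.78 to 2285), and 15.3, 16.1, 27.2 and 20.05 CPM labelled TNF-α.

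Slc7a2 was 59.2, 48.4, 43.8 and 35.5 CPM unstimulated, so that its transcript was present before the stimulus. At 120 min it was 297 ± 50.1 CPM labelled IL-1β and 292, 344, 389 and 385 CPM labelled TNF-α, log2 differences of 2.66 ± 0.15 and 2.90 ± 0.15 (SE). At 360 min it was 502, 452, 341 and 345 CPM labelled IL-1β, but 92.7, 112, 140 and 154 CPM labelled TNF-α. The latter group still lay above the unstimulated libraries, by 1.40 ± 0.17 log2. Gch1 was 2.16, 0, 3.37 and 5.64 CPM unstimulated. It was 26.4 ± 4.87 CPM at 120 min labelled IL-1β and 32.2, 32.2, 32.4 and 17.3 CPM labelled TNF-α. At 360 min it was 42.3, 41.2, 31.8 and 38.4 CPM labelled IL-1β, 3.73 ± 0.35 log2 above unstimulated, and 9.67, 12.1, 13.6 and 8.59 CPM labelled TNF-α, 1.92 ± 0.46 log2 above, or 2.57 without the 4th library of every group. Both late groups lay above the unstimulated libraries without overlap.

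Acod1, the itaconate enzyme, was absent from most unstimulated libraries, with 1 count in all 4, and had 0 counts in 76 of the 164 libraries. At 60 min it was 5.57, 2.62, 1.38 and 1.38 CPM labelled IL-1β, which was not called, and 6.51, 3.19, 5.69 and 6.48 CPM labelled TNF-α, which was. At 120 min it was 16.8, 20.5, 24.5 and 15.7 CPM labelled IL-1β and 26.2, 26.0, 29.8 and 15.5 CPM labelled TNF-α, with overlapping ranges and count ratios to unstimulated of 95.7 (95% counting interval 16.8 to 3815) and 122 (21.4 to 4856). At 360 min the labels stood apart. The libraries labelled IL-1β held 52.2, 45.4, 32.6 and 35.9 CPM and those labelled TNF-α 3.22, 1.01, 2.91 and 0.955 CPM. The latter group was not called against unstimulated (adjusted p 0.197 with edgeR and Benjamini-Hochberg, count ratio 10.4, 95% counting interval 1.44 to 455).

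Sod2, the mitochondrial superoxide dismutase, rose from a level already present in every unstimulated library. It was 172, 168, 181 and 183 CPM unstimulated and, labelled IL-1β, 302 ± 13.9 CPM at 60 min, 503 ± 37.1 at 120 min and 774, 764, 709 and 756 at 360 min. Labelled TNF-α it was 346 ± 16.2 CPM at 60 min, 509 ± 32.3 at 120 min and 462, 519, 537 and 523 at 360 min. The log2 differences from unstimulated were 0.78 ± 0.07, 1.51 ± 0.07 and 2.09 ± 0.07 under IL-1β. They were 0.97 ± 0.07, 1.53 ± 0.07 and 1.53 ± 0.07 under TNF-α, so that the level labelled TNF-α was the same within its error at 120 and 360 min. None of these groups overlapped the unstimulated libraries.

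Lcn2, the siderophore binder, was 21.6, 25.9, 32.8 and 26.6 CPM unstimulated. At 60 min it was called under TNF-α (48.8 ± 9.98 CPM, 0.85 ± 0.23 log2), and that call was lost without the 3rd or the 4th library of every group. At 120 min it was 56.3 ± 11.8 CPM labelled IL-1β and 109 ± 6.25 labelled TNF-α. At 360 min it was 147, 110, 128 and 131 CPM labelled IL-1β, 2.28 ± 0.20 log2 above unstimulated, and 246, 305, 312 and 301 CPM labelled TNF-α, 3.44 ± 0.18 above. Under each label the 360 min group lay wholly above the 120 min group.

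Saa3, the acute phase protein, was 44.7, 47.5, 55.6 and 55.6 CPM unstimulated. It was 174 ± 33.7, 435 ± 95.2 and 527 ± 137 CPM at 60, 120 and 360 min labelled IL-1β, and 182 ± 28.5, 517 ± 86.6 and 490 ± 77.7 CPM labelled TNF-α. At 360 min its libraries were 714, 383, 510 and 502 CPM labelled IL-1β and 572, 519, 484 and 388 labelled TNF-α, and the labels overlapped. The log2 differences from unstimulated were 3.37 ± 0.19 and 3.27 ± 0.19, and the difference between the labels was 0.10 (95% interval of the fold 87.6% to 132%).

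C3, the complement component, did not follow the others. It was 799, 823, 868 and 818 CPM unstimulated, 852 ± 91.0 at 360 min labelled IL-1β and 877 ± 38.8 labelled TNF-α. The differences were 0.04 (95% interval -0.15 to 0.24) and 0.09 (-0.11 to 0.28) log2, and the groups overlapped. The first of them had the other sign when scaled by RLE or tested with DESeq2, and without the 1st library of every group, at -0.02, -0.02 and -0.04. Among the unstimulated group and those at 0 and 100 µM, and at 25 and 50 µM from 120 min, its mean ran from 695 ± 136 to 986 ± 35.9 CPM, the group with the shallowest library included.

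From 120 to 360 min without inhibitor, 4 of the 8 genes went on rising under IL-1β, against 4.35% of all genes, and 0 fell, against 5.04%. These were Acod1 (1.10 ± 0.30 log2), Sod2 (0.58 ± 0.06), Lcn2 (1.19 ± 0.17) and Slc7a2 (0.47 ± 0.12). The Acod1 call was lost with DESeq2 and without the 2nd or the 4th library of every group, and that of Slc7a2 with DESeq2, with only the groups compared in the fit and without the 2nd. By unadjusted p, 5 genes changed in either direction, and DESeq2 called 2 higher. Under TNF-α only Lcn2 was called higher (1.42 ± 0.15 log2, 1 of 8 against 4.73% of all genes). In that label 4 genes fell, against 7.05%: Nos2 (-1.38 ± 0.34), Acod1 (-3.49 ± 0.51), Slc7a2 (-1.51 ± 0.14) and Gch1 (-1.38 ± 0.29). The fall of Nos2 was lost with DESeq2 and without the 2nd library of every group. Nos2 labelled IL-1β went from 15.4 ± 6.23 to 11.4 ± 3.09 CPM, which was not called.

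The difference between the labels in this late change was tested by a contrast added after the levels at both times had been seen. Without inhibitor it was called for 4 of the 8 genes, against 5.29% of all genes. The change was higher under IL-1β by 4.60 ± 0.59 log2 for Acod1, 0.58 ± 0.09 for Sod2, 1.97 ± 0.18 for Slc7a2 and 1.92 ± 0.37 for Gch1. At 100 µM the same genes were called, against 3.23%, with 4.49 ± 0.85, 0.66 ± 0.09, 1.53 ± 0.21 and 1.49 ± 0.37 log2. The Gch1 value at 100 µM was not called without the 1st or the 2nd library of every group, and the Acod1 value there was 3.57 without the 1st and 8.37 without the 3rd. The other 4 genes were not called without inhibitor, where the late change differed by 0.95 ± 0.54 log2 for Nos2, -0.23 ± 0.23 for Lcn2, 0.35 ± 0.21 for Saa3 and 0.12 ± 0.14 for C3.

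**Figure D2:**
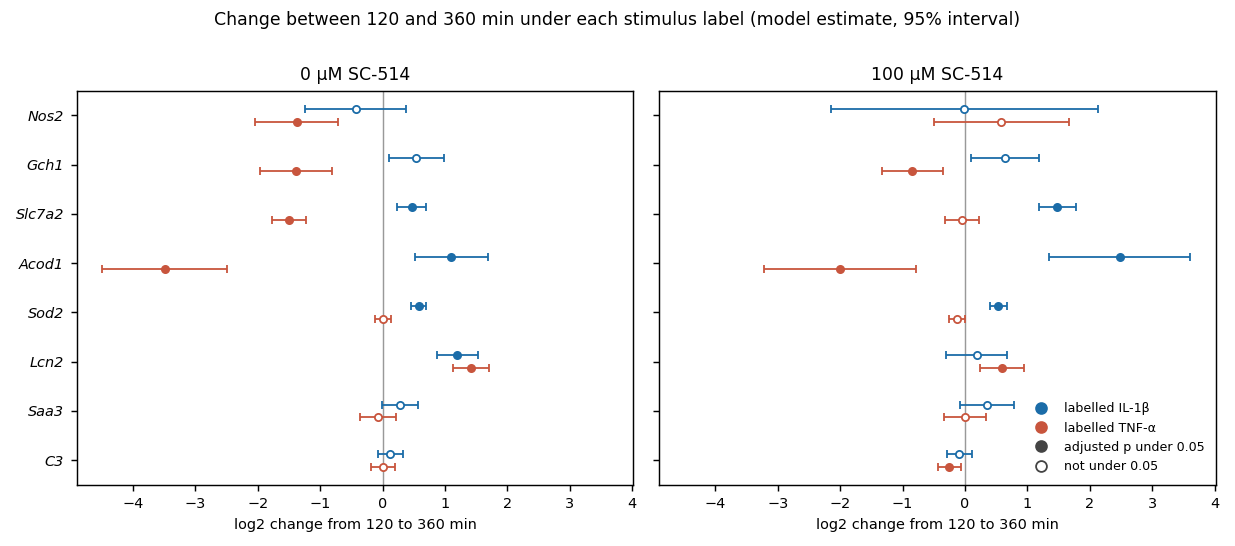
Change from 120 to 360 min (log2, x axis) of each gene by stimulus label, at 0 and 100 µM SC-514, as the edgeR estimate with its 95% interval, filled where the adjusted p was under 0.05. At 0 µM Acod1, Slc7a2 and Gch1 lie above 0 labelled IL-1β and below it labelled TNF-α, and Lcn2 lies above 0 under both labels.

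Compared directly, 2 of 8 genes differed between the labels at 120 min without inhibitor, against 1.02% of all genes. Nos2 was lower under IL-1β by -1.72 ± 0.34 log2 and Lcn2 by -0.94 ± 0.17. The Nos2 call was lost with DESeq2 and without the 2nd library of every group. At 360 min 5 of 8 differed, against 9.46%. Acod1 (4.26 ± 0.47 log2), Sod2 (0.56 ± 0.06), Slc7a2 (1.73 ± 0.14) and Gch1 (1.81 ± 0.28) were higher under IL-1β and Lcn2 (-1.17 ± 0.14) was lower. The Nos2 difference at that time, -0.77 with a 95% interval of the fold from 33.4% to 103%, was not called, although it was with only the groups compared in the fit (adjusted p 0.0449 with edgeR). At 100 µM and 360 min the same 5 genes differed in the same directions, against 15.6% of all genes, a background that is higher than without inhibitor. The values there were 3.49 ± 0.55, 0.58 ± 0.07, 1.18 ± 0.14, 1.20 ± 0.26 and -0.68 ± 0.20 for Lcn2, whose call was lost without the 2nd, the 3rd or the 4th library of every group. The Acod1 value was 2.85 without the 1st library and 7.32 without the 3rd. These direct comparisons carry the label conflict: Nfkbiz at 484 ± 20.4 CPM labelled TNF-α and 53.0 ± 6.95 labelled IL-1β stands beside them.

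SC-514 at 100 µM lowered most of the genes, to levels that differed by gene. At 60 min 4 of 8 were called lower than at 0 µM under IL-1β (Acod1, Sod2, Saa3 and Slc7a2, against 14.4% of all genes) and 5 under TNF-α (those and Lcn2, against 13.6%). Without the 2nd or the 4th library of every group the Acod1 call labelled IL-1β was lost, and without the 3rd that of Lcn2. At 120 min 6 were lower under each label (Nos2, Acod1, Sod2, Lcn2, Saa3 and Slc7a2), against 16.2% and 15.0%. At 360 min the same 6 were lower under IL-1β, against 15.7%. Under TNF-α 5 were lower at 360 min (Nos2, Sod2, Lcn2, Saa3 and C3), against 15.4%. The median log2 difference of the 8 genes at 120 min was -1.40 and -1.67, where that of all genes was 0.03 and 0.03.

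By their estimates Nos2 and Acod1 were reduced furthest at 120 min. Except for Nos2 labelled TNF-α, their intervals overlap those of Saa3 given below, and the genes were not compared by a test. Nos2 at 100 µM was 3.11, 0, 0 and 3.20 CPM labelled IL-1β and 6.12, 4.19, 1.18 and 2.79 labelled TNF-α, 10.6% (95% interval 4.33% to 26.2%) and 6.59% (3.75% to 11.6%) of the level at 0 µM. No library at 100 µM reached the lowest at 0 µM. Acod1 was 2.34 ± 1.36 and 5.01 ± 1.94 CPM, 12.5% (6.11% to 25.7%) and 19.7% (11.7% to 33.3%) of the level at 0 µM. At 360 min Acod1 labelled IL-1β was 20.003, 12.3, 8.41 and 13.2 CPM, or 32.5% (20.9% to 50.6%). Nos2 at 360 min was 0.870, 0.878, 3.36 and 0.946 CPM labelled IL-1β, or 14.2% (5.64% to 35.8%), and 2.54, 1.46, 12.2 and 3.77 labelled TNF-α, or 25.6% (14.2% to 46.4%). The 3rd library carried much of the level at 100 µM under both labels: without it the log2 difference went from -2.81 to -3.61 labelled IL-1β and from -1.96 to -2.67 labelled TNF-α. At 120 min the difference labelled IL-1β went from -3.23 to -3.92 without the 4th. The level of Acod1 labelled TNF-α at 360 min was low with and without inhibitor, and 0, 0, 4.57 and 0 CPM at 100 µM was not called lower, although it was without the 3rd library of every group.

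Saa3 kept 17.4% (95% interval 13.5% to 22.4%) and 23.3% (18.7% to 29.1%) of its level at 120 min, and 18.3% (14.4% to 23.2%) and 24.6% (19.7% to 30.6%) at 360 min. At 100 µM and 360 min its libraries were 135, 58.8, 88.3 and 103 CPM labelled IL-1β and 103, 125, 156 and 99.0 labelled TNF-α, all below every library at 0 µM. For Lcn2 less was left at 360 than at 120 min. It was 53.9% (39.8% to 72.9%) at 120 min and 26.9% (20.8% to 34.8%) at 360 min labelled IL-1β, and 34.1% (26.8% to 43.4%) and 19.1% (15.6% to 23.5%) labelled TNF-α. Its libraries at 100 µM and 360 min were 38.3, 23.7, 37.8 and 38.8 CPM labelled IL-1β and 39.2, 54.1, 60.9 and 67.4 labelled TNF-α. The difference between these times was not tested.

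Sod2 fell to 59.1% (95% interval 53.9% to 64.8%) and 61.5% (56.3% to 67.1%) at 120 min and to 57.2% (52.4% to 62.4%) and 56.2% (51.5% to 61.5%) at 360 min. At 100 µM it was 429 ± 10.4 CPM labelled IL-1β and 287 ± 15.2 labelled TNF-α at 360 min. Sod2 already differed by SC-514 at 15 min under both labels. At 15 min it was 197, 183, 233 and 217 CPM at 0 µM and 174, 156, 148 and 161 at 100 µM labelled IL-1β, a log2 difference of -0.38 ± 0.08 (adjusted p 2.94e-05 with edgeR). Labelled TNF-α it was 200.04, 203, 225 and 208 CPM against 159, 169, 163 and 172, a difference of -0.33 ± 0.07 (adjusted p 0.000203 with edgeR). The groups did not overlap under either label. At that time Sod2 at 0 µM was not called above unstimulated (0.24 ± 0.08 log2 labelled IL-1β, adjusted p 0.1655 with edgeR). Its lowest libraries at 0 µM, 183.45 CPM labelled IL-1β and 200.04 labelled TNF-α, nevertheless lay above the highest unstimulated one, 183.04 CPM.

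Slc7a2 was lowered to 26.7% (95% interval 21.8% to 32.7%) and 28.9% (24.1% to 34.5%) at 120 min. At 360 min it was 53.9% (45.5% to 64.0%) labelled IL-1β, 221 ± 35.5 CPM. Labelled TNF-α it was 97.9 ± 20.3 CPM, or 79.1% (64.9% to 96.4%), which was not called (adjusted p 0.0723 with edgeR), although it was without the 1st library of every group and without the filter on low counts. Before it rose, Slc7a2 was below the unstimulated level in the 100 µM groups labelled TNF-α, at 26.7, 37.6, 25.3 and 34.3 CPM at 15 min (-0.61 log2, adjusted p 0.0207 with edgeR) and 19.0, 26.0, 29.4 and 35.2 at 30 min (-0.79, adjusted p 0.00406 with edgeR). Both calls were lost without the 1st library of every group, and the first also without the 2nd or the 3rd. Against 0 µM at 15 min, Slc7a2 labelled TNF-α was 31.0 ± 5.95 CPM at 100 µM beside 49.2 ± 4.84, without overlap. Labelled IL-1β it was 36.0 ± 4.79 beside 50.4 ± 8.66 CPM, with overlap.

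Gch1 was not called at 100 µM under either label at 120 or 360 min. It was 17.7 ± 6.97 and 27.6 ± 2.38 CPM labelled IL-1β, 66.8% (95% interval 46.3% to 96.3%) and 71.8% (52.3% to 98.6%) of the level at 0 µM. Labelled TNF-α it was 21.9 ± 3.67 and 12.0 ± 2.58 CPM, 75.3% (54.5% to 104%) and 109.6% (71.5% to 168%). The value labelled IL-1β at 120 min was called without the 4th library of every group, and that at 360 min with only the groups compared in the fit. A reduction to the share of Nos2, Acod1 or Saa3 lies outside these intervals. C3 was 98.1% (85.7% to 112%) labelled IL-1β at 360 min. Labelled TNF-α it was 736 ± 54.3 against 877 ± 38.8 CPM, or 83.9% (73.3% to 95.9%), called with an adjusted p of 0.0441 by edgeR. That call was lost with DESeq2, with RLE scaling and without any 1 of the library numbers. At 30 min C3 labelled IL-1β was 0.36 log2 higher at 100 than at 0 µM (892 ± 99.9 against 695 ± 136 CPM), which was lost with only the groups compared in the fit and without the 3rd or the 4th library of every group.

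**Figure D3:**
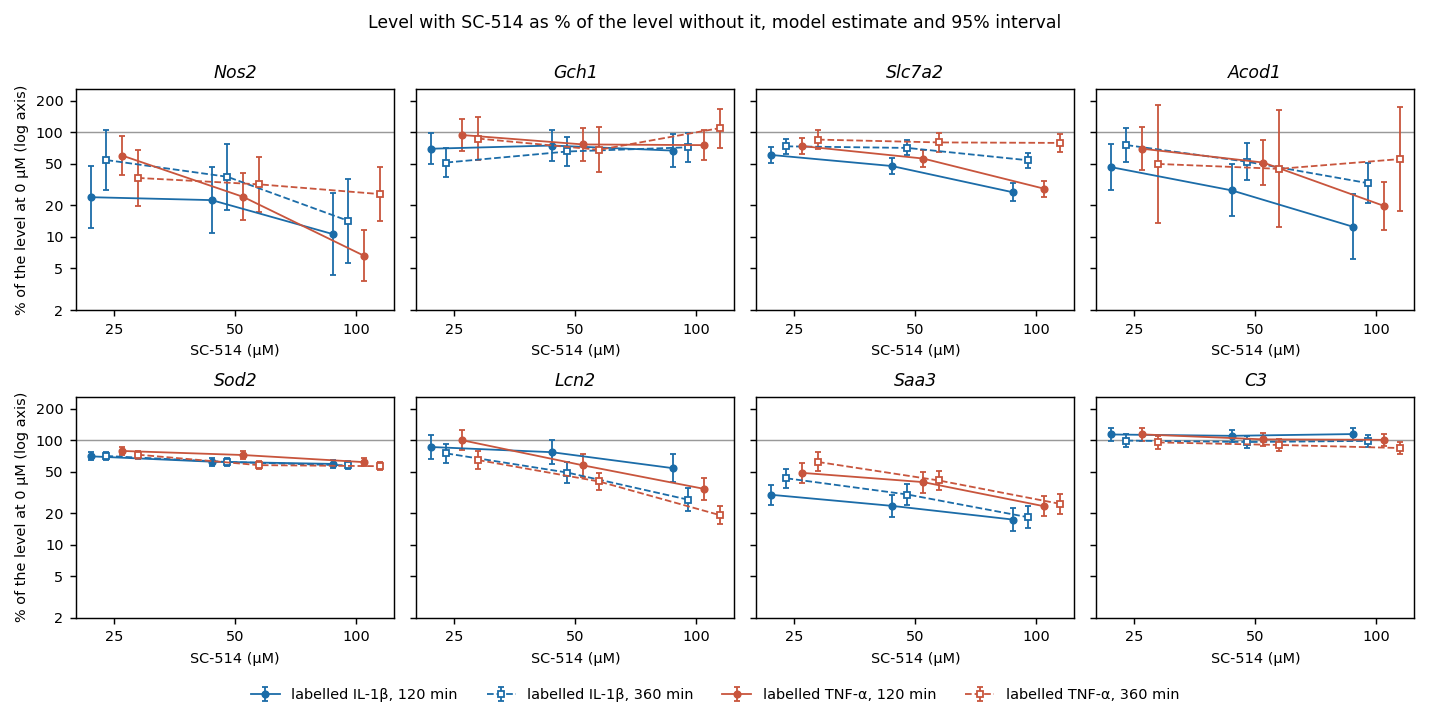
Level of each gene at 25, 50 and 100 µM SC-514 (x axis) as % of its level at 0 µM (y axis, log), by stimulus label at 120 min (filled) and 360 min (open), as the edgeR estimate with its 95% interval. At 360 min Saa3 and Lcn2 go down at each step, Sod2 ends at 57.2% and 56.2%, and C3 ends at 98.1% and 83.9%.

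At the lower concentrations fewer of the genes were called lower than at 100 µM, and not every mean went down step by step. Gch1 labelled TNF-α at 360 min was 9.30, 7.54 and 12.0 CPM at 25, 50 and 100 µM, and C3 labelled TNF-α at 120 min was highest at 25 µM, at 986 CPM. At 25 µM 5 of 8 genes were lower than at 0 µM at 120 min under IL-1β (Nos2, Acod1, Sod2, Saa3 and Slc7a2, against 7.19% of all genes), and 4 at 360 min (Sod2, Saa3, Slc7a2 and Gch1, against 3.9%). At 360 min Acod1 and Lcn2 labelled IL-1β were also called without the 1st library of every group, and Lcn2 without the filter on low counts. That 1st library held 73.4 CPM of Acod1, beside 20.9, 16.3 and 15.3 CPM in its group. Under TNF-α 3 were lower at 120 min (Sod2, Saa3 and Slc7a2, against 4.79%) and 3 at 360 min (Sod2, Lcn2 and Saa3, against 2.26%). At 50 µM 5 were lower at 120 min under each label, against 11.6% and 8.18%. They included Acod1 under IL-1β and Lcn2 under TNF-α beside Nos2, Sod2, Saa3 and Slc7a2. At 360 min and 50 µM 5 were lower under IL-1β (Acod1, Sod2, Lcn2, Saa3 and Slc7a2, against 8.67%) and 4 under TNF-α (Nos2, Sod2, Lcn2 and Saa3, against 7.07%). Nos2 labelled IL-1β, at 4.22 ± 2.81 against 11.4 ± 3.09 CPM, was not called there (adjusted p 0.0646 with edgeR). It was called with the replicate block, without the filter, with only the groups compared and without the 3rd library. The first 3 of these settings also called Nos2 labelled TNF-α at 25 µM and 360 min. At 25 µM the calls of Acod1 (120 min, IL-1β) and Slc7a2 (360 min, IL-1β, and 120 min, TNF-α) were lost with DESeq2 and without at least 1 library number, the 2nd under IL-1β and the 3rd under TNF-α, and so was Acod1 labelled IL-1β at 50 µM and 360 min. Leaving out the 2nd also lost Slc7a2 (IL-1β) and Nos2 (TNF-α) at 50 µM and 360 min, leaving out the 3rd lost Lcn2 at 25 µM and 360 min, and with only the groups compared in the fit both Saa3 calls at 25 µM and 360 min were lost. The group labelled TNF-α at 50 µM and 120 min holds the library of 3839 counts, which had 0 counts of Nos2, Acod1, Lcn2, Saa3, Slc7a2 and Gch1.

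Saa3 at 360 min was 527 ± 137, 228 ± 79.4, 159 ± 59.8 and 96.3 ± 31.6 CPM at 0, 25, 50 and 100 µM labelled IL-1β and 490 ± 77.7, 304 ± 53.4, 202 ± 31.8 and 121 ± 26.1 labelled TNF-α. Lcn2 was 129 ± 14.9, 96.1 ± 23.7, 63.3 ± 12.0 and 34.7 ± 7.31 CPM labelled IL-1β and 291 ± 30.4, 187 ± 31.6, 117 ± 16.5 and 55.4 ± 12.1 labelled TNF-α. From 50 to 100 µM Lcn2 still fell, by -0.86 ± 0.21 and -1.07 ± 0.16 log2 (adjusted p 0.00443 and 3.97e-07 with edgeR), and Saa3 by -0.72 ± 0.19 and -0.74 ± 0.17 (adjusted p 0.0114 and 0.00236 with edgeR). Both Saa3 calls were lost with only the groups compared in the fit and without the 3rd library of every group, and that labelled IL-1β also without the 1st. Sod2 was 751 ± 28.7, 528 ± 45.3, 464 ± 22.7 and 429 ± 10.4 CPM labelled IL-1β and 510 ± 33.2, 369 ± 17.7, 293 ± 27.1 and 287 ± 15.2 labelled TNF-α. Its last step was -0.11 and -0.03 log2 and not called, and the second of these had the other sign with DESeq2, with RLE scaling and without the 4th library of every group. Gch1 labelled IL-1β at 360 min was lowest at 25 µM, with 38.4 ± 4.72, 19.6 ± 3.88, 25.1 ± 6.95 and 27.6 ± 2.38 CPM over the 4 concentrations, and 25 µM was the only one called against 0 µM (-0.96 ± 0.24 log2), although 50 µM was called with the replicate block and, like 100 µM, with only the groups compared in the fit. The libraries at 50 µM overlapped those at 25 µM, and those at 100 µM lay above them.

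At 100 µM some genes still stood above the unstimulated level. At 120 min these were 3 of 8 under IL-1β (Sod2, Slc7a2 and Gch1, against 11.4% of all genes) and 6 under TNF-α (those with Nos2, Acod1 and Saa3, against 11.9%). Under IL-1β the 3 became 5, with Acod1 and Saa3, with the replicate block and without the filter on low counts. At 360 min 5 genes were called under IL-1β (Acod1, Sod2, Saa3, Slc7a2 and Gch1, against 15.6%) and 6 under TNF-α (Nos2, Sod2, Lcn2, Saa3, Slc7a2 and Gch1, against 13.5%). Acod1 labelled IL-1β at 100 µM and 360 min had 66.9 times the unstimulated counts (95% counting interval 11.6 to 2683). Nos2 labelled TNF-α at 100 µM had 16.0 times (2.60 to 656) at 120 min and 24.5 times (4.16 to 992) at 360 min. The first of these Nos2 calls was lost without the 1st, 2nd or 4th library of every group and the second without the 3rd, whose value of 12.2 CPM was the highest of its group. Gch1 was 3.25 ± 0.38 log2 above unstimulated labelled IL-1β and 2.05 ± 0.41 labelled TNF-α, the latter 2.69 without the 4th library of every group. Lcn2 labelled IL-1β, at 34.7 ± 7.31 CPM against 26.8 ± 4.61, was not called.

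Whether the 100 µM effect differed between the labels was tested as an interaction. It was called for 0 of 8 genes at 60, 120 and 360 min with edgeR, against 0.697%, 1.07% and 1.98% of all genes. DESeq2 also called 0, and unadjusted p was under 0.05 for 0, 1 and 1 genes. These were Lcn2 at 120 min, where the reduction labelled IL-1β was smaller by 0.66 ± 0.29 log2, and Slc7a2 at 360 min, where it was larger (-0.55 ± 0.19 log2, adjusted p 0.112 with edgeR). Without the filter on low counts 2 genes were called at 360 min, Slc7a2 (-0.59, adjusted p 0.00409 with edgeR) and Saa3 (-0.47, adjusted p 0.0388 with edgeR). The intervals of the difference between the labels at 360 min were from 89.8% to 115% in fold for Sod2 and from 53.6% to 103% for Saa3. For Nos2 it was from 17.1% to 180%, which does not show that the reductions were alike.

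The other genes of each pathway were read from lists written from general knowledge with earlier results of these data known, and the members are left out of the counts. Over all genes, 12.3% were higher and 9.4% lower at 360 min labelled IL-1β than unstimulated, and 3.62% and 1.8% labelled TNF-α. At 100 against 0 µM and 360 min 13.9% were higher and 15.7% lower labelled IL-1β, and 11.4% and 15.4% labelled TNF-α. The counts of these short lists stand beside those shares, and nothing particular to a list is read from them. Of 11 tested genes of arginine, nitric oxide and tetrahydrobiopterin metabolism, 4 were higher and 1 lower at 360 min labelled IL-1β and 2 higher and 0 lower labelled TNF-α. With DESeq2 these were 2 and 1, and 1 and 0. Odc1, the first enzyme of polyamine synthesis from ornithine, went from 287 ± 24.6 CPM to 565 ± 73.9 and 458 ± 53.4, and at 100 µM it was 264 ± 38.1 and 239 ± 17.3. Ass1, which makes the arginine precursor argininosuccinate, went from 132 ± 12.0 to 244 ± 15.6 and 175 ± 13.5, and at 100 µM it was 128 ± 15.5 and 76.0 ± 13.0. Spr, the last enzyme of tetrahydrobiopterin synthesis, rose labelled IL-1β, from 55.4 ± 5.27 to 76.3 ± 4.85 CPM, and was 61.7 ± 8.11 CPM, not called, labelled TNF-α. Against 0 µM, 1 gene was higher and 3 were lower at 100 µM labelled IL-1β, and 1 and 4 labelled TNF-α, and the latter became 4 and 4 with RLE scaling and 1 and 2 with DESeq2. The list's median difference from unstimulated was 0.09 and 0.13, beside -0.01 and 0.00 for all genes.

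Of 13 tested genes of the citrate cycle, 0 were called against unstimulated at 360 min under either label by edgeR or DESeq2, with 0 at an unadjusted p under 0.05, while RLE scaling called 2 lower labelled IL-1β. The medians were -0.07 and -0.05. At 100 against 0 µM Cs, Idh2 and Mdh2, enzymes of the cycle, were lower under both labels (3 of 13, beside 15.7% and 15.4% of all genes), with Cs, citrate synthase, at 198 ± 20.3 against 236 ± 21.8 CPM and 192 ± 14.0 against 230 ± 36.5. Those counts depend on the scaling: RLE gave 1 higher and 0 lower labelled IL-1β and 1 and 1 labelled TNF-α. Acod1 labelled IL-1β at 360 min thus stood above unstimulated with no other gene of its list called higher by edgeR.

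Of 9 tested genes that remove superoxide and peroxide, 3 were higher at 360 min under each label and 0 lower, with medians of 0.12 and 0.07, and RLE scaling or DESeq2 left 2 under each. Prdx5, a peroxiredoxin found in mitochondria, went from 332 ± 16.6 CPM to 582 ± 42.3 and 496 ± 31.2, and at 100 µM it was 284 ± 28.5 and 274 ± 28.2. Gsr, glutathione reductase, went from 116 ± 12.4 to 184 ± 10.3 and 174 ± 21.6 CPM and was not called lower at 100 µM (165 ± 32.3 and 150 ± 6.63). Gpx1, glutathione peroxidase, was higher labelled IL-1β (546 ± 18.2 against 482 ± 40.3 CPM) and lower at 100 µM under both labels (423 ± 22.7 and 377 ± 13.2). In all 2 genes of this list were lower and 1 was higher at 100 against 0 µM labelled IL-1β, and 3 and 0 labelled TNF-α, while RLE scaling called 2 higher under each label.

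Of 7 tested acute phase and iron-binding genes, 4 were higher at 360 min labelled IL-1β and 3 labelled TNF-α, and 0 lower, with medians of 0.36 and 0.53, and RLE scaling or DESeq2 left 2 labelled TNF-α. Slc39a14, a zinc and iron transporter, went from 71.1 ± 9.42 CPM to 148 ± 12.8 and 121 ± 22.6. Hp, haptoglobin, went from 3.73 ± 1.70 to 13.1 ± 2.91 CPM labelled IL-1β and was 9.40 ± 4.93 labelled TNF-α, where it was not called. Serpina3n, a secreted protease inhibitor, went from 27.2 ± 4.11 to 51.0 ± 17.0 and 53.7 ± 8.59 CPM. At 100 against 0 µM 2 were lower labelled IL-1β and 5 labelled TNF-α, and RLE scaling left 1 lower and 1 higher, and 4 lower and 1 higher.

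Of 8 tested complement genes, 1 was higher at 360 min labelled IL-1β and 0 were called in either direction labelled TNF-α, where unadjusted p was under 0.05 for 0 and DESeq2 called 0. Cfb, factor B, which joins C3 fragments in the alternative pathway, went from 5.66 ± 3.88 to 25.8 ± 7.87 CPM labelled IL-1β and was 8.23 ± 3.25 at 100 µM. C2, an activator of the classical pathway, was 2.97 ± 1.04, 6.65 ± 2.03 (not called) and, lower at 100 µM, 2.39 ± 1.45 CPM. Labelled TNF-α, Cfb was 7.54 ± 2.97 CPM. At 100 against 0 µM 3 genes of the list were lower labelled IL-1β and 2 labelled TNF-α, and DESeq2 left 2 and 1.

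Likeness of patterns was measured as the Pearson correlation of log2(mean CPM + 1) over the 41 groups, which share 1 unstimulated group, 1 count table and the time course, and is given as a description. Slc7a2 was most like Jak2 (0.968), a cytokine receptor kinase, then Acod1 (0.951) and Cxcl16 (0.947), a chemokine. Gch1 was most like Jak2 (0.940), Tnip1 (0.939) and Slc7a2 (0.923), and Acod1 like Tnip1 (0.962), a gene of NF-κB feedback, Slc7a2 and Ptges (0.947), prostaglandin E synthase. Nos2 was most like Saa3 (0.911), Itgav (0.885) and Slc7a2 (0.870), and Saa3 like Sod2 (0.922), Il1f6 (0.921) and Nos2. Sod2 was most like the chemokines Cxcl16 (0.950) and Cxcl9 (0.935) and Rnf149 (0.936). Lcn2 was most like Saa3 (0.874), Syt7 (0.848) and Slpi (0.840), a secreted protease inhibitor, and it correlated with Acod1 at 0.548 and with Gch1 at 0.564. C3 correlated with the other members at -0.01 to 0.19 and was most like Enpp2 (0.750), Ptprg (0.734) and Grina (0.698). Acod1, Slc7a2 and Gch1 correlated with each other at 0.905 to 0.951, and Nos2 with these at 0.776, 0.870 and 0.821. With a pseudocount of 0.1 in place of 1, Itgav for Nos2, Tnip1 for Acod1 and Acod1 for Slc7a2 were no longer among the 3 most like, and 21 of 24 remained.

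**Figure D4:**
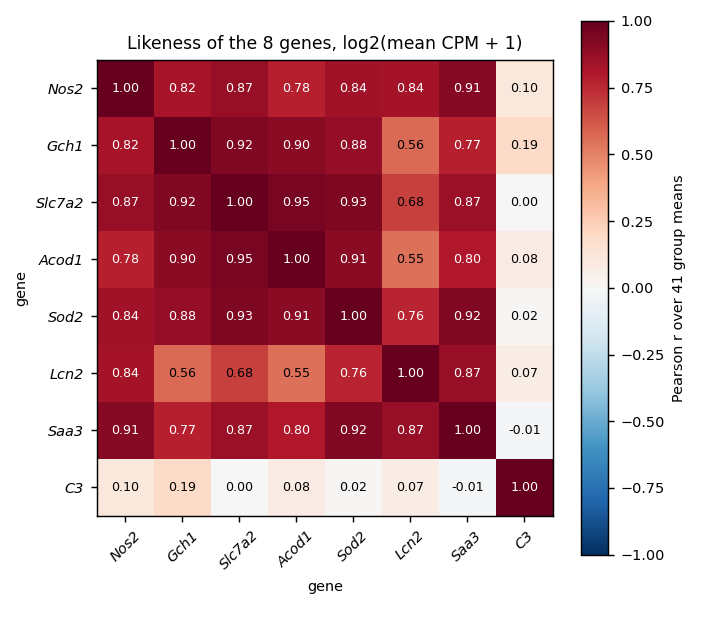
Pearson correlation of log2(mean CPM + 1) over the 41 groups between each pair of the 8 genes, on a colour scale from -1 to 1. Acod1, Slc7a2 and Gch1 correlate at 0.905 to 0.951 with each other, Lcn2 correlates less with these than with Saa3 (0.874), and C3 lies between -0.01 and 0.19 with every other gene.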

How the data were processed

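Read counts per gene, whole numbers in 164 columns, were analysed as the authors deposited them. The 656 sample records share these columns in sets of 4, and a column is treated as 1 library. The submitters' processing notes name Bowtie2 and GRCm38 (mm10). The counting tool and its annotation were not given in the sources used here. Symbols came from the reference tables for 21858 genes (212 had none) and positions from GENCODE M21.

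The 8 genes, the pathway lists and the markers were chosen with earlier results of these data known. The genes named are all 8, up to 3 genes of each list with the smallest adjusted p at 360 min against unstimulated, and for each member the 3 genes with the highest correlation. Idh2 and Mdh2 fall outside this rule, were named after their values were seen, and so was Nfkbiz.

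Genes passing edgeR's filterByExpr (10766) were scaled by TMM (0.934 to 1.08, and 1.45 and 2.44 in the 2 shallow libraries) and fitted in 1 robust quasi-likelihood model over all 41 groups with edgeR 4.0.16 in R 4.3.3, tested on simulated data. P-values were adjusted by Benjamini-Hochberg within each comparison, and 95% intervals are 1.96 standard errors each way. Counting intervals are exact and cover counting error only. Alternatives were DESeq2 1.42.0, RLE factors, no filter, only the groups compared, a block on the library number, and leaving out the shallow libraries or each number. Within groups 0 of 246 pairs of libraries were identical. For the complement list 1 gene's result is not reported here.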

Additional observations from a re-analysis of the deposited data

Results flagged for a closer look

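In 12 of the 192 gene and group combinations with at least 20 counts, 1 of the 4 libraries stood apart from the others by its gap relative to the range, where chance gives about 1 in 20. These combinations share libraries, and the 2 lowest of Sod2 and C3 come from the library of 3839 counts. For Nos2 the highest library labelled TNF-α at 25 µM and 360 min was 12.8 CPM. For Acod1 the highest labelled IL-1β at 25 µM and 360 min was 73.4 CPM. The lowest Sod2 library labelled TNF-α at 50 µM and 120 min was 107 CPM, and the lowest C3 library of that group was 429 CPM. Lcn2 had 5 such libraries. These were 74.0 CPM (highest, IL-1β, 0 µM, 120 min), 23.7 CPM (lowest, IL-1β, 100 µM, 360 min), 63.7 CPM (highest, TNF-α, 0 µM, 60 min), 246 CPM (lowest, TNF-α, 0 µM, 360 min) and 48.6 CPM (highest, TNF-α, 100 µM, 120 min). The highest C3 library labelled IL-1β at 50 µM and 360 min was 971 CPM, the lowest Slc7a2 library labelled TNF-α at 25 µM and 120 min was 221 CPM, and the lowest Gch1 library labelled TNF-α at 0 µM and 120 min was 17.3 CPM.

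The change from 120 to 360 min differed between the stimulus labels for 4 of the 8 genes in a contrast added after the data were seen. The change labelled IL-1β exceeded that labelled TNF-α by 4.60 log2 for Acod1, 0.58 for Sod2, 1.97 for Slc7a2 and 1.92 for Gch1 at 0 µM. At 100 µM the excess was 4.49, 0.66, 1.53 and 1.49.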

How the results depend on the processing

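Of 174 differences of the 8 genes given or called, 159 were called, and 132 of these kept their call in each of the 11 alternative settings that gave an adjusted p. Some of the 174 had no adjusted p with DESeq2 or with only the groups compared, and are not counted as lost there. None of the calls was lost with the replicate block or without the 2 shallow libraries, 9 were lost with DESeq2, 1 with RLE factors, 8 with only the groups compared and 24 in at least 1 setting that left out a library number. Counts of called members stayed within 1.5 times in every setting for 33 of 40. Pairing by library number was not established over all genes: same-numbered libraries had a mean correlation of 0.0445 against -0.0147 for other numbers, and every pair was above 0.1 in 1 of 68 comparisons. Single members did follow the number under 1 label. C3 labelled IL-1β at 0 µM was highest in the 1st library at each time, with 987, 789, 804 and 830 CPM at 360 min. Saa3 there was 547, 324, 468 and 400 CPM at 120 min. Labelled TNF-α, C3 at 360 min was 910, 912, 845 and 842 CPM. The block gave each number the same effect under both labels. The count at 30 min labelled IL-1β went from 0 to 1 with the replicate block and, with RLE or TMM factors, without the shallow libraries. At 100 µM and 120 min labelled IL-1β, 5 in place of 3 stood above unstimulated with the replicate block and without the filter. At 25 µM and 360 min labelled IL-1β, 2 in place of 4 were lower with DESeq2 and with only the groups compared, and leaving out a number gave 3 to 6. At 50 µM leaving out a number gave 3 to 5. The rise from 120 to 360 min labelled IL-1β was called for 2 in place of 4 with DESeq2 and for 2 to 4 leaving out a number. The labels differed at 0 µM and 120 min for 1 in place of 2 genes with DESeq2 and for 1 to 3 leaving out a number. Without the filter the interaction at 360 min was called for 2 in place of 0, Slc7a2 and Saa3. The step of Sod2 from 50 to 100 µM labelled TNF-α at 360 min was 0.015 log2 with DESeq2 and 0.015 with RLE factors, and -0.080 to 0.010 leaving out a number. C3 at 360 min labelled IL-1β against unstimulated was -0.018 with DESeq2 and -0.018 with RLE factors, and -0.043 to 0.083 leaving out a number. Over all genes, the count of calls moved beyond 1.5 times in 20 of 40 comparisons with DESeq2, 4 with RLE factors, 6 without the filter, 3 with only the groups compared and 6 to 19 leaving out a number. At 100 against 0 µM and 360 min, for example, 1686 genes lower labelled IL-1β became 1057 with DESeq2, and 1661 labelled TNF-α became 938. With RLE factors these counts were 1254 and 1099, and with RLE factors but without the 2 shallow libraries 1734 and 1724. In that last setting 0 of 40 comparisons moved beyond 1.5 times. The causes were not tested. Nos2 and Acod1 rest on the fewest counts of the 8 genes, 894 and 1137 over all libraries, with 0 in 93 and 76 of them.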
